A study of Mus musculus with 7 samples.

Results

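Rad21, Zeb2, Cers6, Nostrin, Adgrl4 and Caap1 are the 6 genes next to GRE12, GRE19, GRE22, GRE44 and GRE80, the 5 gene regulatory elements (GREs) taken as hits for somatostatin (SST) interneurons in a pooled viral screen of mouse visual cortex, by limits on both the SST fold and its corrected significance. They are 6 of the 25871 gene columns of the snRNA-Seq tables. The genes were selected on measured values, because the 5 enhancers were chosen from 287 screened GREs for their SST fold in these nuclei and, before that, for ATAC-Seq reads in SST chromatin. The enhancers' own folds and reads are therefore given as a description. The levels of the 6 genes in the nuclei were not part of that choice.

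An enhancer is a stretch of DNA that raises transcription of a promoter on the same molecule, and in the genome it may act on a gene far away and pass over nearer ones. In the screen each GRE was cut off from its locus and placed in an adeno-associated virus before a minimal promoter, so its transcripts were read away from the locus and together with the promoter, the vector and the viral load of the cell, while the neighbouring gene's mRNA reports the endogenous locus. SST interneurons are inhibitory neurons of the cortex that mainly contact dendrites, and they differ from the parvalbumin (PV) and vasoactive intestinal peptide (VIP) classes. The 6 neighbours have unrelated roles. Rad21 is a subunit of cohesin, the ring that holds sister chromatids together and forms chromatin loops. Zeb2 is a zinc finger transcription factor used in interneuron and oligodendrocyte development. Cers6 is a ceramide synthase, Caap1 is a regulator of caspase activity, Nostrin guides the trafficking of endothelial nitric oxide synthase, and Adgrl4 is an adhesion G-protein-coupled receptor of blood vessel endothelium.

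The 5 elements are shown here because every comparison below pairs one of them with a gene. On GRCm38, GRE12 lay at chr15:52005640-52005939, between genes and 13893 bp from the start of Rad21. GRE19 lay at chr2:45924259-45924558, between genes and 806864 bp from the start of Zeb2. GRE22 lay at chr2:69084462-69084761 in an intron of Cers6, 223021 bp from the start of Cers6 and 51039 bp from that of Nostrin. GRE44 lay at chr3:150792256-150792555, between genes and 645332 bp from the start of Adgrl4. GRE80 lay at chr4:94392091-94392390 within the non-coding gene Gm12648, and its nearest coding starts were those of Gm10306 at 164156 bp and Caap1 at 164406 bp. The sequences are those of the reference genome on the plus strand, 300 bases each, and capitals mark matches to the motifs searched on both strands. The screened elements were longer than these windows, since the cloning primers added flanking sequence on each side, which is not printed and was not searched.

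GRE12: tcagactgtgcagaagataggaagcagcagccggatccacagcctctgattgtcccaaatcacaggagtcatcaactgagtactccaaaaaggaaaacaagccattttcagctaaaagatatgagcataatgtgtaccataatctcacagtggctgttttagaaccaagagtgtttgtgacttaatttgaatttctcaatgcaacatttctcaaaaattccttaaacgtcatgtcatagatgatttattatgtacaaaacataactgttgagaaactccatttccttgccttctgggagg

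GRE19: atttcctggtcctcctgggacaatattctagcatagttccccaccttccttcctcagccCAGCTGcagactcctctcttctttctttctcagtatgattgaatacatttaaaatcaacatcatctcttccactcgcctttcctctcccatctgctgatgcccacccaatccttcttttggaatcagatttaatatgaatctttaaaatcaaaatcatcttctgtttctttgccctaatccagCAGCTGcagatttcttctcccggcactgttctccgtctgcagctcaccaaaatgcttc

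GRE22: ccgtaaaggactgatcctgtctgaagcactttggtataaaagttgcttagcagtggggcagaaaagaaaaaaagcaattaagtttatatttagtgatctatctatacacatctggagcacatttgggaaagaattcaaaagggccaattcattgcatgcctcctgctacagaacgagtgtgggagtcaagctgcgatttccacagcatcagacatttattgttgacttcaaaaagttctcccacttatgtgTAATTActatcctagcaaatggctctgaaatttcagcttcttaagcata

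GRE44: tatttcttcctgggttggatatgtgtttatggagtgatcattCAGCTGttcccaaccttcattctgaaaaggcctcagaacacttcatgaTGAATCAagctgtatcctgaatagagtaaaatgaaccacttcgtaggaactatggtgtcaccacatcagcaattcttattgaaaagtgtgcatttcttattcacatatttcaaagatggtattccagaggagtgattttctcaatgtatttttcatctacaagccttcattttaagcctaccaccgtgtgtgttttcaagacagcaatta

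GRE80: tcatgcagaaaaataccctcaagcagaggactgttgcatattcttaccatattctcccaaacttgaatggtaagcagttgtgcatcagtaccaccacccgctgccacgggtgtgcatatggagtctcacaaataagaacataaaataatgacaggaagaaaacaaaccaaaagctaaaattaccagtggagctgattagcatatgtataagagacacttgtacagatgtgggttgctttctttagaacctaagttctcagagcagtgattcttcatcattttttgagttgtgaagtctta

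The motifs were TGANTCA (AP-1-like letters, with any base at N), TAATTA (a homeodomain core), ACAATG (SOX), AGGTCA (part of a nuclear receptor site) and CAGCTG (an E-box). The E-box was found at positions 60 and 243 of GRE19 and at position 43 of GRE44, the AP-1 letters at position 91 of GRE44 and TAATTA at position 252 of GRE22, with positions counted from 1 at the left end. The printed windows of GRE12 and GRE80 held none of these letters. In the central 300 bases of 323360 reference regions, the E-box was present in 26.3%, the AP-1 letters in 13.0% and TAATTA in 4.9%. In the 36215 conserved regions, from which the screened GREs were drawn, the shares were 28.7%, 11.1% and 8.3%. No motif was found in all 5 windows, and the E-box, the only one in more than 1 of them, was also the most frequent of these 3 in both backgrounds. The mean phyloP conservation score was deposited for the reference region of 601 bp around each window. It was lowest in GRE19 at 0.520 and highest in GRE80 at 1.08, with 0.541 in GRE12, 0.621 in GRE22 and 0.699 in GRE44.

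The snRNA-Seq sample came from the visual cortex of C57BL/6J mice aged 6 to 10 weeks, labelled male, that were injected with an AAV9 pool of the 287 GREs, and it was deposited as 10 libraries in 2 sets of 5. ATAC-Seq was made on nuclei from whole cortex of uninjected mice aged 6 to 12 weeks, with 2 samples each of SST, PV and VIP nuclei that were tagged through Sst-IRES-Cre, Pv-Cre or Vip-IRES-Cre and a nuclear envelope GFP, so all of these groups carried the GFP allele. The labels give male mice, and the protocol text names both sexes. The screen lacks a group without virus, and its 10 libraries are deposited as 1 sample, so values from nuclei carry counting intervals and the range over libraries but no test. The study's methods give 5 libraries from each of 2 mice, so the 2 sets may be the 2 mice, although the labels do not say which libraries came from which. A range over libraries may therefore hold a difference between animals, and values by set rest on 1 mouse each if the sets are the mice.

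Of 47348 cell barcodes, 32335 had more than 200 non-viral UMIs, with 2457 to 3629 per library, a median of 712 UMIs and 2496224 to 3041931 UMIs per library. Marker genes placed 13708 nuclei (42.4%) in 10 gates. The SST gate, at least 3 UMIs of Sst, held 743 nuclei with a median of 902 UMIs, and there were 52 to 90 of them per library. In it, the GABA markers Gad1, Gad2 and Slc32a1 summed to 27.1 UMIs per 10000. A check list of Elfn1, Crhbp, Chodl, Grin3a, Lhx6 and Sox6 summed to 19.5 there, although Lhx6 was also listed as a check for PV. The list stood at 1.87 in PV, 3.25 in VIP, 0.978 in NPY and 5.52 in OPC nuclei (oligodendrocyte precursors), and at 0.323 in the 7961 excitatory nuclei. Excitatory markers were still found at 9.01 per 10000 in the SST gate, against 43.0 in the excitatory gate, and 238 UMIs of Sst (0.240 per 10000) were found in excitatory nuclei. The 299 endothelial nuclei also held mural cell markers at 42.5 per 10000, 6 of the 7 listed with Acta2 at 0. Libraries shared 5476 cell barcodes, and 36.9% of nuclei had a barcode found in another library. All levels below are UMIs of the gene per 10000 non-viral UMIs, with the exact 95% Poisson interval, which covers counting error only.

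Cers6 was the one gene of the 6 with its highest level in the SST gate. There were 125 UMIs in SST nuclei, a level of 1.59 (1.32 to 1.90), and the level was 0.965, 1.52 and 2.40 in the lowest, median and highest of the 10 libraries. In excitatory nuclei it was 0.724 (0.672 to 0.779), with libraries from 0.596 to 0.873. Every library's SST level thus lay above every library's excitatory level. A UMI of Cers6 was found in 12.9% of SST nuclei, at a median depth of 902 UMIs, and in 7.65% of excitatory nuclei at 1130.

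Among the other interneurons, Cers6 stood at 1.15 (0.911 to 1.43) in PV nuclei and at 1.10 (0.803 to 1.46) in NPY nuclei, a gate made of Npy, Lamp5 and Ndnf. The SST level was 1.39 times that of PV (1.04 to 1.86) and 1.45 times that of NPY (1.03 to 2.08), so the lower bounds lay close to 1. PV libraries ran from 0.170 to 3.18 and overlapped the SST libraries. VIP nuclei had 14 UMIs and a level of 0.451 (0.246 to 0.756), and the SST level was 3.53 times that (2.03 to 6.64). The 14 UMIs came from 4 of the 10 libraries, and the highest VIP library, at 1.25, lay above the lowest SST library. Microglia had 0.990 (0.605 to 1.53), which the SST level exceeded by 1.61 times with an interval of 0.997 to 2.72. The lowest levels were 0.201 in astrocytes, 0.187 in oligodendrocyte precursor cells (OPCs) and 0.0811 in endothelial nuclei. Barcodes with 200 UMIs or fewer, which may hold free RNA or debris, had Cers6 at 0.615 (0.507 to 0.740). That lay below SST, PV and NPY nuclei and above endothelial nuclei and astrocytes. The interval overlapped that of excitatory nuclei, which were higher, and those of VIP nuclei, oligodendrocytes (0.458) and OPCs, which were lower. The VIP level in the SST to VIP ratio was thus not above that of these barcodes.

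The SST ratio, the level in the SST gate over that in all other gated nuclei, was 2.33 for Cers6 (1.92 to 2.81). It was 2.24 in the first set of libraries and 2.41 in the second. Against PV, VIP and NPY nuclei alone it fell to 1.62 (1.26 to 2.08). Of the 11428 genes with at least 100 UMIs in gated nuclei, 396 (3.47%) were at least 2-fold higher in the SST gate and 1625 (14.2%) were at or below 0.5 times the level elsewhere, and the median ratio was 0.941. Of the 6 genes, 5 reached 100 UMIs, Nostrin with 76 did not, 1 (Cers6) was above 2-fold and 1 (Adgrl4) below 0.5. With so few genes, these counts say nothing of the group as a whole.

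**Figure D1:**
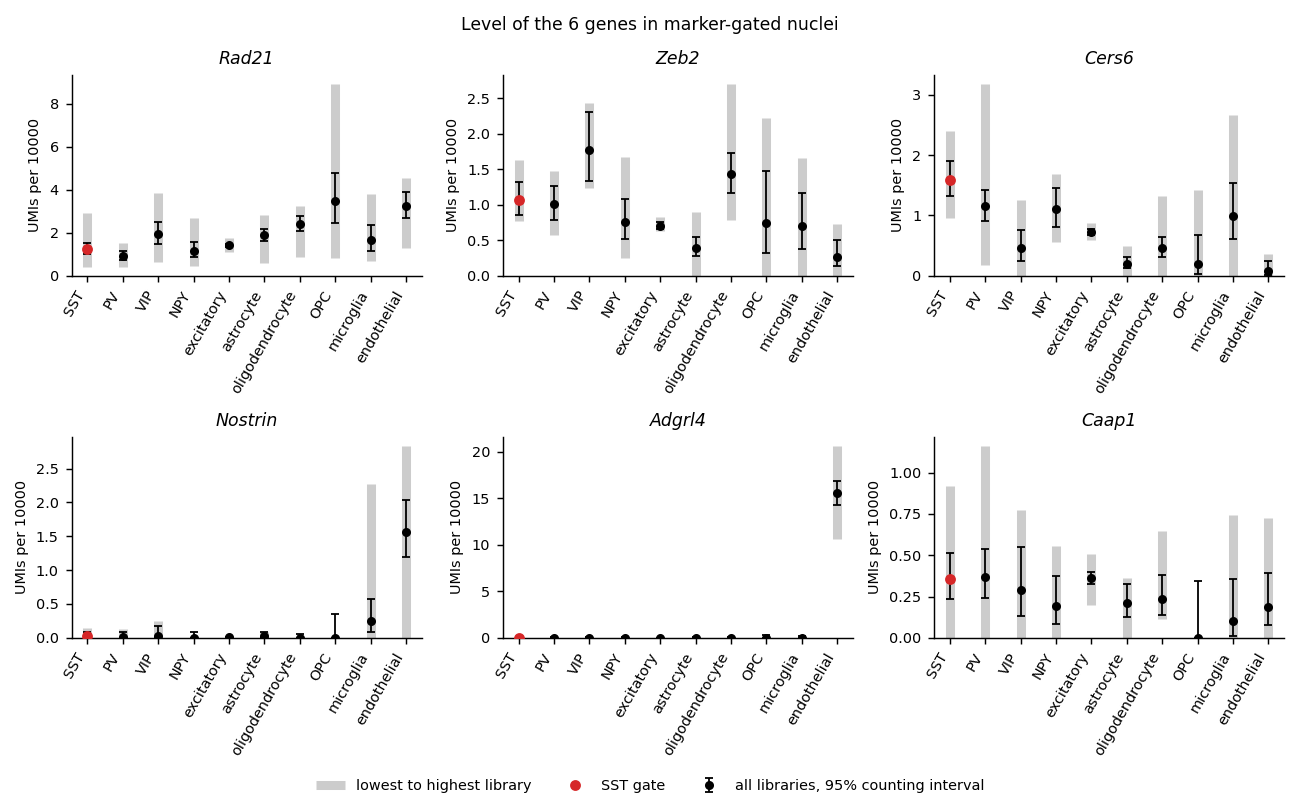
Level of each gene (UMIs per 10000 non-viral UMIs, linear axes that start at 0) in 10 marker gates. Points are all libraries with 95% Poisson intervals, red marks the SST gate, and grey bars run from the lowest to the highest library. Cers6 is highest in the SST gate at 1.59, while Nostrin and Adgrl4 stand only in endothelial nuclei, at 1.57 and 15.6, apart from Nostrin's 0.248 in microglia.

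Zeb2 had UMIs in all gates and was highest in VIP nuclei, at 1.77 (1.33 to 2.31), and in oligodendrocytes, at 1.43 (1.17 to 1.73). SST nuclei followed at 1.07 (0.853 to 1.32), with libraries of 0.765, 0.950 and 1.63 at the lowest, median and highest, and PV nuclei at 1.01 (0.785 to 1.27). SST and PV were not told apart, since their ratio was 1.06 (0.766 to 1.48), while SST lay below VIP at 0.604 times (0.425 to 0.864). Excitatory nuclei had 0.702, astrocytes 0.391 and endothelial nuclei 0.270. The SST ratio was 1.43 (1.13 to 1.78) against all other gated nuclei and 0.972 (0.737 to 1.27) against the other interneurons, so the SST gate was above the excitatory but not above the interneuron level. Zeb2os, a transcript that overlaps Zeb2 on the opposite strand, had 7 UMIs in SST nuclei beside 84 of Zeb2. The non-coding 1700019E08Rik, which the deposited table names next to GRE19, had 0 UMIs in SST nuclei, with an interval up to 0.0470, and 3 UMIs there would be a level of 0.0382.

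Rad21 had a lower level in the SST gate than in most others, but not than in the other interneurons together. SST nuclei had 99 UMIs and a level of 1.26 (1.02 to 1.53), with libraries of 0.414, 1.14 and 2.91, and only PV at 0.920 (0.710 to 1.17) and NPY at 1.17 (0.865 to 1.55) were lower. OPCs had 3.46 (2.44 to 4.77), endothelial nuclei 3.24 (2.69 to 3.88) and oligodendrocytes 2.40 (2.06 to 2.79). The SST ratio was 0.813 (0.658 to 0.995), with 0.669 in the first set of libraries and 0.929 in the second. Against the other interneurons it was 1.04 (0.804 to 1.34), on the other side of 1, and against excitatory nuclei 0.889 (0.718 to 1.09). The upper bound was above 1 on leaving out 6 of the 10 libraries in turn, up to 1.07 without the first library of the second set, and was 1.00 without another. It was also above 1 with a minimum of 500 UMIs (1.03) and with a stricter gate (1.01). Rad21 was at 1.70 (1.51 to 1.90) in barcodes with 200 UMIs or fewer, above the SST, PV, NPY and excitatory levels (1.42 in excitatory nuclei). In these 4 gates, too, no level above such barcodes was seen. The gates with the highest levels were those of few UMIs per nucleus (a median of 317 in OPCs and 314 in oligodendrocytes) and the endothelial gate at 919. The part of free RNA in this order was not tested.

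Caap1 was sparse and close to even. SST nuclei had 28 UMIs and a level of 0.356 (0.237 to 0.515), with 8 of 10 libraries above 0 and a highest library of 0.917. Excitatory nuclei had 0.361 (0.324 to 0.400) and PV nuclei 0.368 (0.240 to 0.539), and the SST ratio was 1.09 (0.718 to 1.60). Lower levels of 0.236 in oligodendrocytes, 0.211 in astrocytes and 0.191 in NPY nuclei had intervals that overlapped that of SST. OPCs had 0 UMIs in 106827, with an interval up to 0.345, and 3 UMIs there would be a level of 0.281. Gm10306, whose start is the nearest to GRE80 and which overlaps Caap1 on the opposite strand, had 2 UMIs in all gated nuclei.

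**Figure D2:**
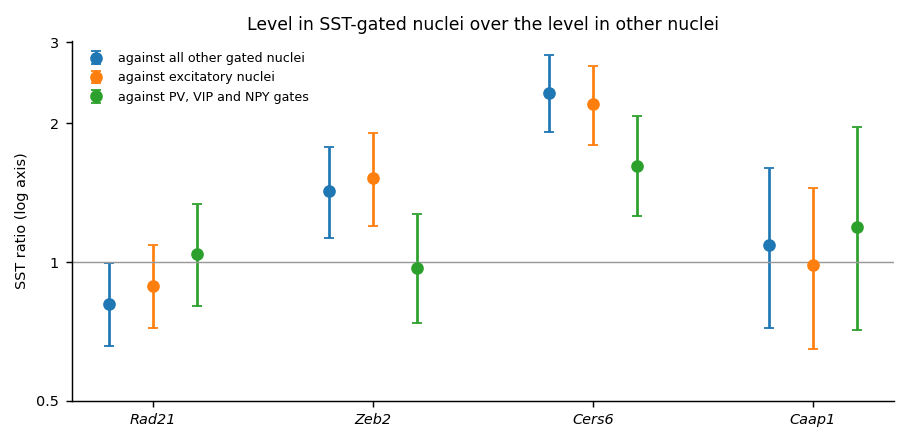
SST ratio (log axis) of Rad21, Zeb2, Cers6 and Caap1, with exact 95% counting intervals, against all other gated nuclei, excitatory nuclei, and the PV, VIP and NPY gates. The 3 intervals of Cers6 lie above 1, with ratios of 2.33, 2.20 and 1.62, while Zeb2 is above 1 only in the comparisons that include excitatory nuclei.

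Adgrl4 and Nostrin, the neighbours of the element GRE44 and of the intronic GRE22, were endothelial. Adgrl4 had 577 UMIs in 299 endothelial nuclei, a level of 15.6 (14.3 to 16.9) with libraries from 10.6 to 20.6, and a UMI in 60.5% of nuclei. In 743 SST nuclei there was 1 UMI, a level of 0.0127 (0.000322 to 0.0709), and in PV, VIP and NPY nuclei there was none. Excitatory nuclei had 7 UMIs in 9897354, a level of 0.00707. Barcodes of 200 UMIs or fewer had 0.126, above each of these neuronal gates, so no neuronal level of Adgrl4 above these barcodes was seen. The SST ratio was 0.0297 (0.000751 to 0.166).

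Nostrin had 58 UMIs in endothelial nuclei, a level of 1.57 (1.19 to 2.03), and 8 of 10 libraries were above 0. The libraries at 0 were in the first set, whose highest was 2.02, while those of the second set ran from 1.60 to 2.83. Microglia came next with 5 UMIs, at 0.248 (0.0804 to 0.578). SST nuclei had 2 UMIs, a level of 0.0255 (0.00308 to 0.0920), which lay below the 0.0549 of barcodes with 200 UMIs or fewer. The SST ratio was 0.471 (0.0560 to 1.76). GRE22 thus lay within Cers6, whose level was highest in SST nuclei, and next to Nostrin. The level of Nostrin in SST nuclei was not above that of barcodes with 200 UMIs or fewer.

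The transcripts of the 5 enhancers, chosen for this, were highest in SST nuclei, with PV nuclei next. Each enhancer was read through 3 barcodes, summed here. GRE80 gave a mean of 1.93 viral UMIs per SST nucleus (1.83 to 2.03), with libraries of 1.02, 1.78 and 2.83, followed by PV at 0.665 and NPY at 0.606. GRE44 gave 1.24 in SST and 0.414 in PV nuclei, and GRE22 gave 1.01 and 0.323. GRE19 gave 0.497 in SST, 0.222 in PV and 0.167 in NPY nuclei but 0.0159 in VIP nuclei, the gate where Zeb2 was highest. GRE12 gave 0.432 in SST and 0.0914 in PV nuclei. In endothelial nuclei, where Adgrl4 and Nostrin were highest, GRE44 gave 0.0334 and GRE22 gave 0.0435.

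All viral UMIs together differed between gates as well, with 47.8 per SST nucleus, 36.0 per PV, 18.0 per excitatory and 4.52 per endothelial nucleus. Per 1000 viral UMIs, GRE80 had 40.4 in SST, 24.5 in NPY, 18.5 in PV and 10.9 in excitatory nuclei. GRE22 had 21.1 in SST, 14.4 in OPCs, 9.63 in endothelial and 8.97 in PV nuclei. SST remained highest for the 5 enhancers on this scale, while the order of the other gates changed.

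The SST fold, the mean in SST nuclei plus 0.01 over the mean in all other nuclei above 200 UMIs plus 0.01, was 9.50 for GRE80, 9.20 for GRE22, 7.47 for GRE12, 7.14 for GRE44 and 7.05 for GRE19. All 287 GREs had a median of 2.10, and all viral UMIs together 3.18. The added 0.01 pulls the fold of a GRE with few UMIs toward 1, and the median includes such GREs. With this gate GRE163 at 8.81 and GRE83 at 7.41, which were not among the hits, fell between them, and GRE57 followed GRE19 at 5.85. The means of GRE163 were 0.191 in SST and 0.0128 in other nuclei, so the added 0.01 weighed on its fold. The fold of GRE19 ranged from 0.649 to 26.4 over libraries and was below 1 in 2 of the 10, so its libraries spread wider than those of GRE80, from 5.56 to 15.9.

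**Figure D3:**
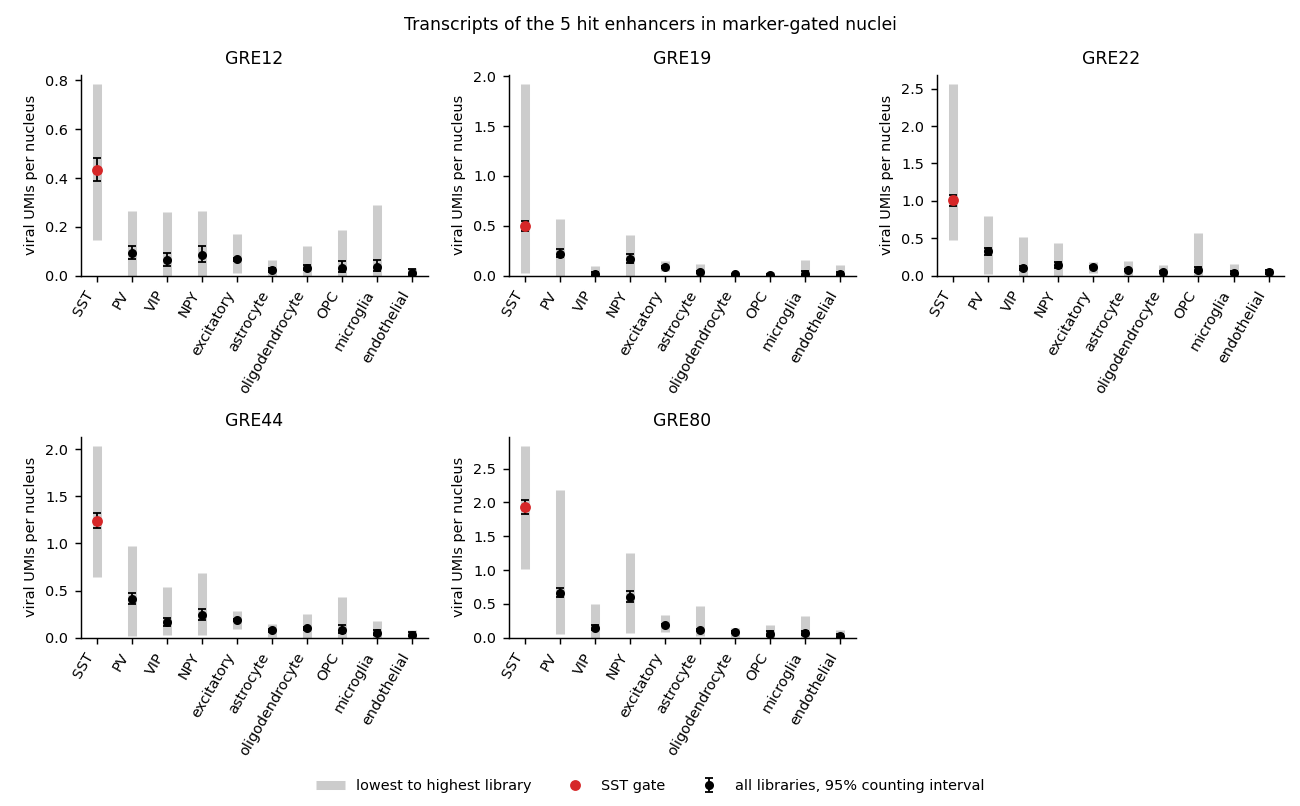
Mean viral UMIs per nucleus of each hit enhancer (3 barcodes summed, linear axes from 0) in the 10 gates, with 95% Poisson intervals in black and the lowest to highest library in grey. The SST gate is highest for each, from 0.432 for GRE12 to 1.93 for GRE80, and the libraries spread far wider than the counting intervals.

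Across the 10 gates, the log2 mean UMIs of GRE22 and the log2 level of Cers6 had a Pearson r of 0.659, and GRE80 and Caap1 had 0.573. The other pairs had 0.112 for GRE19 and Zeb2, -0.398 for GRE22 and Nostrin, -0.456 for GRE44 and Adgrl4 and -0.702 for GRE12 and Rad21. Per viral UMI, r was -0.0559 for GRE22 and Cers6, 0.308 for GRE80 and Caap1, -0.305 for GRE19 and Zeb2, -0.0328 for GRE22 and Nostrin, -0.414 for GRE44 and Adgrl4 and 0.0292 for GRE12 and Rad21. The values for Cers6, Zeb2 and Rad21 thus changed sign with the scale, and that of Nostrin moved close to 0. The gates share libraries and differ in depth and in viral load, so these values only describe the profiles.

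Within the SST gate, nuclei with and without the enhancer's UMIs held the gene at levels that could not be told apart. Cers6 was at 1.22 in the 120 nuclei with GRE22 (median 1331 UMIs) and at 1.69 in the 623 without (849 UMIs), a ratio of 0.724 (0.425 to 1.18). Caap1 was at 0.399 in the 202 nuclei with GRE80 and 0.333 in the other 541, a ratio of 1.20 (0.507 to 2.71). The ratios were 0.876 (0.388 to 1.74) for Rad21 with GRE12 and 0.827 (0.345 to 1.71) for Zeb2 with GRE19. Split by Npy, which marks a part of SST cells, Cers6 was at 1.45 in 427 nuclei with a UMI of Npy and 1.85 in 316 without, a ratio of 0.786 (0.543 to 1.15).

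The wider neighbourhoods held 41 protein-coding genes whose start lay within 1 Mb of a hit enhancer, 21 of them around GRE22, 9 around GRE80, 6 around GRE12, 3 around GRE44 and 2 around GRE19. Of these, 25 had at least 100 UMIs, and their median SST ratio was 0.882. Cers6 was the only one above 2-fold (4.00% against the 3.47% of all genes). The next were Fastkd1, a mitochondrial RNA protein, at 1.81 (1.14 to 2.76), Mettl5, an rRNA methyltransferase, at 1.43 (0.697 to 2.64), Zeb2 at 1.43, and Utp23, a factor of ribosome assembly, at 1.26 (0.616 to 2.32). Only the intervals of Cers6, Fastkd1 and Zeb2 lay above 1 among these 5. The lowest were Tek, an endothelial receptor that was itself a gate marker, with 0 UMIs in SST nuclei and 0.162 per 10000 elsewhere, Adgrl4, and the transcription factor gene Jun at 0.376 (0.245 to 0.554).

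Aard, whose start lay 34168 bp from GRE12 on the side away from Rad21, was singled out after its values were seen. It had 15 UMIs in SST nuclei, a level of 0.191 (0.107 to 0.315), and 64 elsewhere, so it stayed under the minimum of 100. PV nuclei had 0.127, NPY nuclei 0.119, excitatory nuclei 0.0455 and VIP nuclei none. Its SST ratio was 4.08 (2.16 to 7.24), and 7 of the 15 UMIs came from 1 library.

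The nearest coding genes of the other screened GREs gave a wider background. Of 167 with at least 100 UMIs, Sst left out, 18 (10.8%) were at least 2-fold higher in SST nuclei and 38 were at or below 0.5, with a median of 0.903. These GREs were ranked on SST chromatin, so their neighbours are not a random draw of genes.

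**Figure D4:**
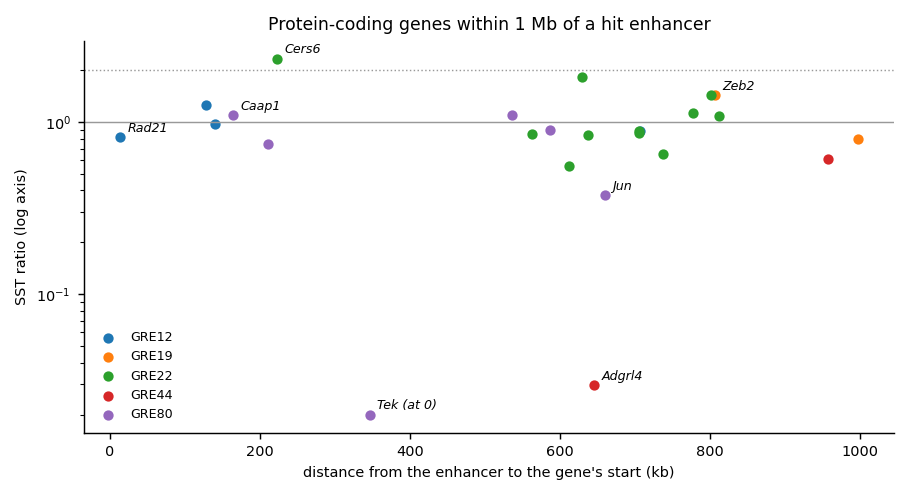
SST ratio (log axis) of the 25 protein-coding genes with at least 100 UMIs against the distance from the enhancer to the gene's start (kb), coloured by enhancer. The solid line marks a ratio of 1 and the dotted line 2. Cers6 at 223.0 kb is alone above the dotted line, and Tek, with 0 UMIs in SST nuclei, is drawn at the lower edge.

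By the rule of highest Pearson r of log2(level + 0.1) over the 10 gates, Cers6 was most like Ttc9c (r = 0.971), Mphosph8 (0.944) and Zfas1 (0.943), and Zeb2 was most like Edil3 (0.918), Gnai1 (0.916) and Elavl3 (0.911). Caap1 was nearest to Kif3b, a kinesin subunit (0.966), Fkbp8 (0.964) and Rnf167 (0.951). Adgrl4 followed the endothelial gate markers Slco1a4 (0.998) and Cldn5 (0.996) and the vascular phosphatase gene Ptprb (0.993), and Nostrin followed Myl6 (0.954), Slc6a6 (0.951) and Pdgfb (0.948). Rad21 was most like Ss18 (0.960), the RNA-binding protein gene Hnrnpk (0.941) and Hbb-bs (0.938), a globin gene of red blood cells. Hbb-bs was at 12.4 per 10000 in barcodes of 200 UMIs or fewer and at 0.864 in excitatory nuclei, whereas Rad21 was at 1.70 and 1.42. Hbb-bs had its highest gate level in endothelial nuclei, 4.57, where the median library was at 0.638 and the highest at 29.7, and 8.03% of those nuclei had a UMI.

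ATAC-Seq gave a second view of the loci, with 1801883 to 2256073 reads in reference regions per sample. The CPM is reads over all reads in reference regions, scaled up. Regions within 5 kb of Sst had a CPM of 23.1 and 26.6 in the SST samples and at most 6.10 in the others. Those at Pvalb were highest in PV (33.1 and 42.7) and those at Vip in VIP (21.3 and 24.6), as the labels have it. The regions at Sst include the screened GRE222, 2 bp from its start and chosen on SST reads of these samples. For Sst this is therefore no independent check of the labels. At the 5 enhancers, whose reads had a part in their choice, nearly all reads came from the second SST sample. GRE44 had 20 reads there, GRE80 had 15, GRE12 had 14, GRE22 had 10 and GRE19 had 9. Reads were counted over reference regions of 601 bp, wider than the 300 bases printed above. The first SST sample had 0 to 2 reads at each, PV samples had 0 and VIP samples 0 or 1. A peak was called at each of the 5 in the second SST sample and in no other. None of the 5 regions passed the filter on low counts.

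The regions of the genes themselves, from 5 kb before the start to the end of the gene and without the screened GREs, were open to a test. SST was compared with the mean of PV and VIP by edgeR's quasi-likelihood test over 40338 regions, of which 8.15% were higher and 5.41% lower in SST at a Benjamini-Hochberg adjusted p under 0.05. At the 6 genes, 31 of 158 regions had enough reads, and SST was higher at 4 of them and lower at 1. A region entered the test with a CPM of at least 5.02 in 2 samples, and 3 of the 4 higher regions reached it in the SST samples alone. Such a region could enter only by being high in SST, so its reads are given as a description, without a p, and the counts support nothing about the genes. Without the filter on low counts, edgeR called none of the 153 regions tested at the 6 genes. The calls were at Cers6 (3 higher and 1 lower of 10) and at Nostrin (1 higher of 2). None of the 16 regions at Zeb2, 2 at Rad21 and 1 at Caap1 was called, and none of 17 at Adgrl4 had enough reads.

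At Cers6, the gene whose level was highest in SST nuclei, the region at the start (chr2:68860998-68862134) was lower in SST, with a CPM of 40.4 and 31.0 in the SST samples, 50.8 and 61.0 in PV and 61.6 and 73.3 in VIP. The groups did not overlap, and the log2 fold change was -0.78 ± 0.21 (SE, n = 2 samples per group, edgeR adjusted p = 0.0216). Within the gene, the region 127833 bp after the start (chr2:68988913-68989636) had 5.25 and 5.32 in SST, 2.03 and 0.555 in PV and 0 in both VIP samples. The region 23322 bp after the start had 6.30 and 5.76 in SST, 2.03 and 1.66 in PV and 0.496 and 1.34 in VIP. Both passed the filter through the SST samples alone. The third, 177420 bp after the start, had 3.67 and 6.21 in SST but 5.08 and 1.66 in PV, so SST and PV overlapped (log2 2.33 ± 0.68, edgeR adjusted p = 0.0288), and it passed the filter through 1 SST and 1 PV sample. The 3 regions within the gene rested on 7 to 14 reads in each SST sample. Without the filter on low counts none of the 4 regions was called, and with the replicate block the one at 177420 bp was not. With DESeq2, the calls at the start, at 23322 bp and at 177420 bp were lost, and leaving out a sample ended the call at the start (without PV replicate 2 or VIP replicate 2), at 23322 bp (without either SST replicate or VIP replicate 1), at 127833 bp (without either SST replicate) and at 177420 bp (without either PV replicate, SST replicate 2 or VIP replicate 1).

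At Nostrin, the region 3122 bp after the start (chr2:69138574-69139270) had a CPM of 7.35 and 5.32 in SST, 2.54 and 2.77 in PV and 0 in both VIP samples. It too passed the filter through the SST samples alone, and without the filter it was not called. The start of Nostrin itself had peaks in both PV samples only, and the region there had too few reads for a test. The level of Nostrin in SST nuclei was at background, as above. At the starts of Rad21, Zeb2 and Caap1, a peak was called in all 6 samples, and the log2 fold changes were -0.07 ± 0.15, -0.36 ± 0.35 and 0.16 ± 0.21 (SE, edgeR adjusted p = 0.835, 0.578 and 0.685).

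Within 100 kb of the enhancers, 13 of 123 regions were tested, and the 4 calls, 3 higher and 1 lower in SST, were all near GRE22, beside shares of 8.15% and 5.41% over all regions. The 3 higher regions are those already given at 127833 bp and 177420 bp of Cers6 and at Nostrin, and none of the 4 was called without the filter. The lower one (chr2:69128836-69129558) had a CPM of 4.20 and 2.22 in SST, 6.10 and 6.66 in PV and 12.9 and 15.2 in VIP, and passed the filter through the PV and VIP samples alone, so it too is a description. None was called near GRE12 (3 tested) and GRE80 (2 tested), and near GRE19 and GRE44 no region had enough reads.

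**Figure D5:**
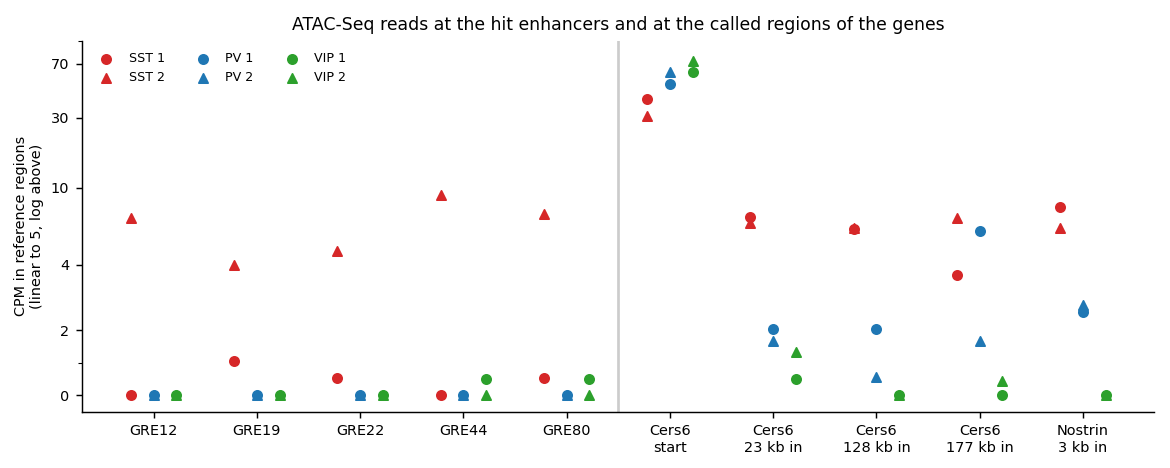
ATAC-Seq CPM in each sample (linear to 5 and logarithmic above) at the 5 hit enhancers, left of the line, and at the 5 called regions of Cers6 and Nostrin, right of it, named by the distance from the gene's start. At the enhancers the second SST sample stands alone, from 3.99 to 8.86. At the region 128 kb into Cers6 both SST samples lie above all others. That region passed the filter on low counts through the SST samples alone, which fixes this order, so it is a description. Without the filter none of the 5 regions was called.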

How the data were processed

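The 6 genes, the marker lists, the motifs and the neighbour lists were chosen with earlier results of these data known. UMI counts per gene and nucleus were deposited by the authors, who mapped reads with the inDrops pipeline to GRCm38 with a contig for each viral barcode, and read viral transcripts also from libraries enriched by PCR. Read counts per reference region were deposited by the authors after trimming with Trimmomatic 0.33, alignment to mm10 with Subread 1.4.6-p3, removal of duplicates and counting with featureCounts. The deposited phyloP score is the authors' mean conservation over each region. The peak lists deposited by the authors give the −log10 q-value of peaks called by MACS2 in each sample and also found by HOMER. The authors' columns of SST fold, a ratio from their own comparisons, were not read. A further 303 viral columns belong to no screened GRE and were not used here.

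Nuclei had more than 200 non-viral UMIs. Glial, vascular and excitatory gates asked for at least 3 UMIs from at least 2 listed genes (excitatory nuclei also for no GABA marker), SST and VIP for 3 UMIs of Sst or Vip, PV for 1 of Pvalb with a GABA marker and under 2 of Sst, and NPY for 3 of Npy, Lamp5 and Ndnf with 2 of GABA markers, under 2 of Sst and of Vip and none of Pvalb. Of 935 nuclei that passed several gates, the 247 with 3 times more marker UMIs for one class were kept there and the rest left ungated. No doublet caller was run. The 34 mural nuclei, under the minimum of 50, were left out. The gates were set with these UMIs in view. Ratios carry the exact conditional interval for a pair of Poisson counts. Positions and the nearest start came from GENCODE on GRCm38, with sequence from GRCm38.p6. All listed sample columns of the count table were used.

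Reads were tested with edgeR 4.0.16 in R 4.3.3 (TMM, filterByExpr), SST minus the mean of PV and VIP, with standard errors computed from the F statistic, and with DESeq2 1.42.0 on the same regions as an alternative. Per the study's methods, the 2 samples of a group were independent experiments on 1 animal each. The test was also run, without the filter on low counts, on counts simulated from the tested regions with known changes. The counting interval was run on simulated counts too, and the outcomes are not given here. The text names the 6 genes and 5 enhancers, the 3 genes of highest r per gene among those with at least 500 UMIs, the 5 highest and 3 lowest neighbours by SST ratio, the gate markers and the regions called at a gene, with Aard, Zeb2os, 1700019E08Rik, Gm10306 and the other GREs of high fold added after their values were seen. Alternatives were other minimum UMIs (500), a stricter gate (5 UMIs from 3 genes), other comparison nuclei, other scalings, another window and leaving out libraries or samples.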

Additional observations from a re-analysis of the deposited data

Results flagged for a closer look

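In the SST gate, GRE19 had a mean of 1.92 viral UMIs per nucleus in the second library of the second set, where the next highest library had 0.926, and its SST fold there was 26.4, where the next had 10.2. The same library was far above the others for GRE22, with 2.56 against 1.41. The only UMI of Adgrl4 in SST nuclei put the first library of the second set at 0.118 per 10000, with the others at 0. Each value of GRE19 and GRE22 was far from the other 9 libraries by Dixon's criterion, which chance passes in about 1 in 20 of such sets, and 16 sets were tested. For Adgrl4 a single UMI in any library would pass it, so that value says nothing about the library. In nuclei outside the gates, which enter none of the comparisons of gates, 931 UMIs of Adgrl4 and 115 of Nostrin were found.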

How the results depend on the processing

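Against the other interneuron gates alone, the SST ratio of Rad21 rose to 1.04 and that of Zeb2 fell to 0.972, on the other side of 1, and that of Cers6 was 1.62. That of Nostrin, 0.471 against all other gated nuclei, was 1.83 there, from 2 UMIs on each side, also on the other side of 1. Against excitatory nuclei alone Adgrl4 had 1.80, from 1 UMI, on the other side of 1, and Nostrin 4.20, from 2 UMIs, likewise. No ratio of Adgrl4 against the interneurons could be given, since they held none of its UMIs, and in the first set of libraries it was 0. Nostrin had 0.299 with the stricter gate, 0.780 in the first set and 0.339 in the second. Adgrl4 had 0.0170 with the stricter gate and 0.0561 by the mean of per-nucleus shares, against 0.0297. These values of both genes stayed inside their wide counting intervals. Leaving out each library in turn gave 0.721 to 0.867 for Rad21, 1.35 to 1.48 for Zeb2, 2.19 to 2.42 for Cers6, 0.247 to 0.584 for Nostrin, 0.899 to 1.25 for Caap1 and 0 to 0.0338 for Adgrl4, whose 0 was without the first library of the second set. The SST folds outside their counting interval all stayed above 1. In the first and second set of libraries alone they were 6.03 and 9.08 for GRE12, 5.64 and 9.30 for GRE19, then 7.44 and 11.7 for GRE22, and 6.19 and 8.46 for GRE44. The stricter gate gave 8.79 for GRE12, 7.97 for GRE19, 10.1 for GRE22 and 10.5 for GRE80. Per non-viral UMI the fold was 8.24 for GRE22, 6.20 for GRE44 and 8.21 for GRE80. A pseudocount of 0.001 gave 8.63 for GRE12 and 7.92 for GRE19, and a minimum of 500 UMIs 8.82 for GRE80. Without each library it ran from 7.02 to 8.08 for GRE12, 5.36 to 7.85 for GRE19, 8.30 to 9.87 for GRE22, 6.43 to 7.47 for GRE44 and 9.02 to 9.96 for GRE80.

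For ATAC-Seq, edgeR called 5470 regions, 3288 higher and 2182 lower, DESeq2 1453 (864 and 589), and edgeR without the filter 568 (411 and 157) of many more regions tested. At the genes, the calls were 5 with edgeR and 2 with DESeq2, each of 31 regions tested, and 0 of 153 without the filter. DESeq2 was run on the same filtered regions, 40338 in all. Its 2 calls, at 127833 bp of Cers6 and at Nostrin, passed the filter through the SST samples alone, so they too are a description. Leaving out each sample gave 4442 to 7465 calls, 2865 to 4958 higher and 1544 to 2507 lower, the most without SST replicate 1, and 3 to 4 at the genes. A group left with 1 sample is assumed to vary like the others. More regions also passed the filter in these fits, with 47 or 48 tested at the genes where the main fit had 31. Their counts of calls therefore cannot be compared with those of the main fit. The higher count without SST replicate 1 says nothing of that sample. Same-numbered samples deviated with correlations from -0.037 to 0.03. In a group of 2 the deviations mirror each other, and counting error weakens such values. They therefore cannot decide whether the numbers pair the samples. A fit with replicate block gave 4929 calls (2994 and 1935), 4 of them at the genes.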

Other observations

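Among nuclei with at least 3 UMIs of the endothelial list that were left ungated (305 nuclei), Adgrl4 was at 13.2 and Nostrin at 1.39 UMIs per 10000, close to the 15.6 and 1.57 of the gate. In the 17429 ungated nuclei with none of the endothelial markers, Adgrl4 was at 0.0162 and Nostrin at 0.0154.

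The 303 viral columns that belong to no screened GRE held 5791 UMIs in the nuclei above 200 UMIs.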
